A study of Mus musculus with 12 samples.

Results

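FOXO proteins are forkhead transcription factors, and their genes Foxo1, Foxo3 and Foxo4 were followed here in haematopoietic stem cells (HSCs), from which all blood lineages in the marrow arise. A probe set, the group of array probes that reports 1 transcript, was taken for a member gene where the array's annotation tied it to that gene and to no other. This gave 9 probe sets of 34945 with a single gene symbol, and 3 genes of 18193. Each gene was represented by the probe set of highest mean log2 signal over the 12 arrays, 1416983_s_at for Foxo1, 1434832_at for Foxo3 and 1456753_at for Foxo4, and its other probe sets are given beside it. All 3 genes passed the filter on dim signals. In the GRCm38.p6 gene table of RefSeq, Foxo1 lies on chromosome 3 from 52268337 to 52350109, Foxo3 on chromosome 10 from 42181845 to 42276695, and Foxo4 on chromosome X from 101254261 to 101260873.

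HSCs were sorted from mouse bone marrow into a GFPhigh population, called quiescent in the labels, and a GFP- population, called cycling. The mice were NrasG12D/+, carrying 1 activated allele of the small GTPase gene Nras, or wild type, so the 4 groups were Nras GFPhigh, Nras GFP-, wild-type GFPhigh and wild-type GFP-, each of 3 biological replicates. All mice drank doxycycline for 6 weeks and were then kept without it for 12 weeks. A label that doxycycline switches on is thinned out by cell division. The age of the mice and the driver of the label were not given in the sources used here, nor was the number of mice behind a sample. RNA was measured on Affymetrix arrays as MAS5 signal, a linear brightness in intensity units.

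FOXO factors switch on genes that hold cells out of division, defend against oxidants, trigger cell death or adjust metabolism. Growth factors act on them through PI3K and the kinase AKT, which phosphorylates FOXO proteins so that 14-3-3 proteins keep them in the cytoplasm, where they are inactive. In mice, loss of Foxo1, Foxo3 and Foxo4 together is known to drive HSCs into cycle and to deplete them under oxidative stress, and Foxo3 is known as the member that HSC maintenance leans on most. Array signal reports RNA, so phosphorylation and location of the proteins were outside the measurement.

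All 13 HSC marker genes on the array, among them Procr, Kit, Mecom and Hlf, were above the array median on every array of Nras GFPhigh, wild-type GFPhigh and wild-type GFP-. In Nras GFP- 11 of 13 were. The array median is a low bar. Other markers passed it too, 12 of 14 proliferation markers on every Nras GFP- array and 7 of 12 granulocyte markers on every Nras GFPhigh array. Of 11 B lineage markers 3 did so in Nras GFPhigh. The HSC count does not by itself establish the HSC label. In 4 arrays the signals fitted the group means less closely, with array weights from limma of 0.403 and 0.503 in Nras GFPhigh replicates 1 and 2, 0.308 in Nras GFP- replicate 1 and 0.522 in wild-type GFPhigh replicate 2, against 0.903 to 2.46 in the other arrays. These are called the uneven arrays below, and without them Nras GFPhigh keeps 1 array. Xist, an RNA of the inactive X chromosome, set replicate 3 of each group apart, with Xist at 91.8 to 205.1 in replicate 3 and 5773.4 to 11480.7 in the others. The Y-linked gene Eif2s3y ran the other way, at 3876.6 to 4544.9 in replicate 3 and 2.3 to 674.7 in the others. This is the pattern of male cells in replicate 3 and female cells in the others. Nras GFPhigh replicate 2 gave signal for both, with Xist at 10092.3 and Eif2s3y at 674.7. In bulk RNA of sorted cells, fewer cells of a type and less RNA per cell cannot be told apart. Summed signals of granulocyte markers ran from 6037.3 to 59185.3 in Nras GFPhigh, 4571.6 to 5590.6 in Nras GFP-, 1031.8 to 13189.9 in wild-type GFPhigh and 2565 to 13391.2 in wild-type GFP-. Over all 12083 genes tested, 1 gene (Gem, in Nras against wild-type over both populations) passed an adjusted p under 0.05 in any of 7 comparisons, which is 0.00828% of genes there and 0% in the others, so no FOXO gene passed. No gene passed there with the replicate number as a block.

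Foxo1, the member best known for insulin-responsive metabolism and for lymphocyte development, gave its lowest signals in wild-type GFP- cells with its representative probe set. Its other probe sets had their lowest geometric mean in other groups. The signals of the representative probe set were 1582.4, 519.3 and 1626.2 in Nras GFPhigh and 2734.8, 1622.4 and 1041.3 in Nras GFP-. They were 904.5, 2640 and 1060.2 in wild-type GFPhigh, against 700.2, 167.4 and 164.5 in wild-type GFP-. Every array of the other 3 groups except Nras GFPhigh replicate 2 was above all 3 wild-type GFP- arrays. By geometric mean the order was Nras GFP- at 1666, wild-type GFPhigh at 1363, Nras GFPhigh at 1101 and wild-type GFP- at 268, and the arrays of the first 3 groups overlapped one another.

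**Figure D1:**
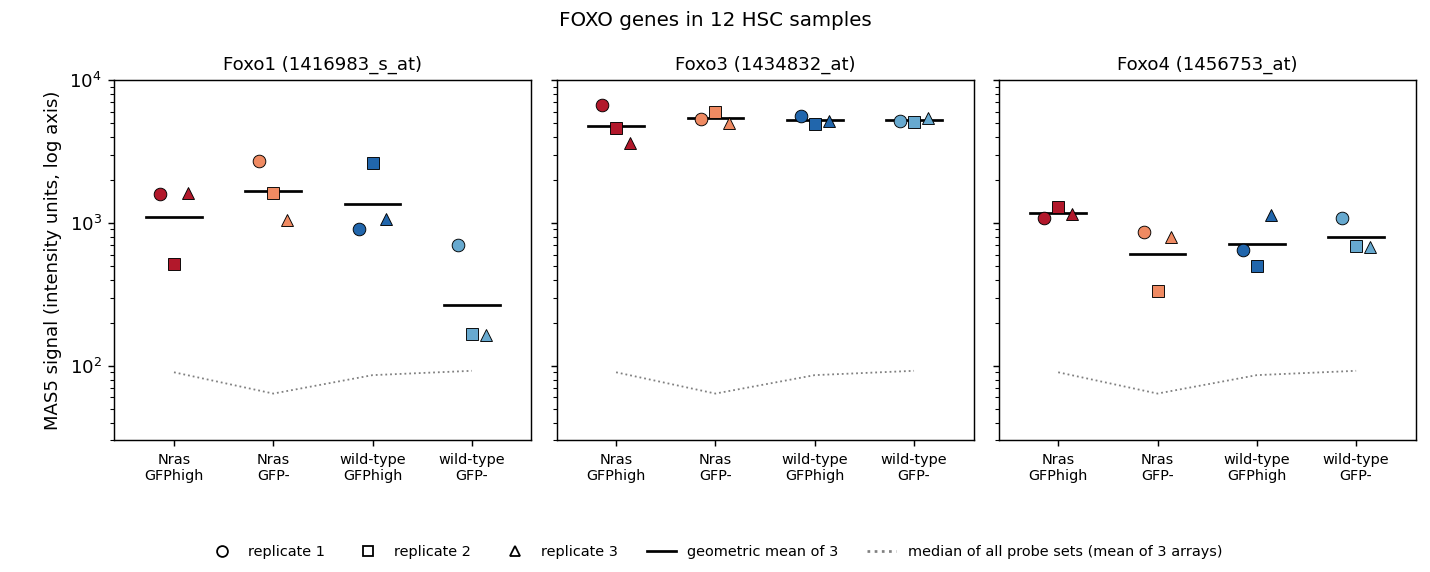
MAS5 signal (intensity units, log axis) of the representative probe set of Foxo1, Foxo3 and Foxo4 in each of 12 arrays, by group. Symbols mark replicates, bars the geometric mean of 3 arrays, and the dotted line the array median of all probe sets, averaged over the 3 arrays of a group. Foxo1 was lowest in wild-type GFP- (164.5 to 700.2), Foxo3 lay between 3602.2 and 6726.2 throughout, and Foxo4 in Nras GFPhigh (1083.9 to 1291.4) was above all Nras GFP- arrays.

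In wild-type cells the Foxo1 signal averaged 1535 ± 960 in GFPhigh and 344 ± 308 in GFP- (SD, n = 3 each), and the groups did not overlap. The limma difference was 2.35 ± 0.76 on the log2 scale (SE, 95% interval 0.71 to 3.98), a fold of 5.08, with an unadjusted p of 0.00852 and an adjusted p of 0.9997 over all tested genes. Among all tested genes 5.3% were higher and 5.81% lower in wild-type GFPhigh with no overlap and 2.2% had an unadjusted p under 0.05, so the difference stood out from most genes without passing the test. Without the uneven arrays it was 1.87 ± 0.71 (limma unadjusted p 0.0272, adjusted p 0.999).

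In Nras cells the Foxo1 signal averaged 1243 ± 627 in GFPhigh and 1800 ± 861 in GFP-, and the groups overlapped. The log2 difference was -0.60 ± 0.76 (95% interval -2.23 to 1.04, limma adjusted p 0.779). It turned to 0.32 ± 0.95 without the uneven arrays. The difference between genotypes in the GFPhigh against GFP- contrast, the interaction, was -2.94 ± 1.07 (95% interval -5.26 to -0.63), with a limma unadjusted p of 0.0167 and an adjusted p of 0.956, where 4.68% of all genes had an unadjusted p under 0.05. Without the uneven arrays the interaction was -1.55 ± 1.18 (unadjusted p 0.225). Over both genotypes together the GFPhigh against GFP- difference was 0.87 ± 0.54 (limma adjusted p 0.668).

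Between genotypes, Foxo1 in GFP- cells averaged 1800 ± 861 in Nras and 344 ± 308 in wild-type, with no overlap. The log2 difference was 2.63 ± 0.76 (95% interval 1.0 to 4.27), a fold of 6.21, with a limma unadjusted p of 0.00409 and an adjusted p of 0.983. Among all genes 4.07% were higher in Nras GFP- with no overlap, and 4.39% had an unadjusted p under 0.05. This comparison and the wild-type one share the 3 wild-type GFP- arrays, so they do not stand on separate evidence. In GFPhigh cells the difference was -0.31 ± 0.76 (limma adjusted p 0.943), and it was 0.73 ± 0.95 without the uneven arrays. There 12.5% of all genes kept Nras and wild-type arrays apart (5.12% higher and 7.37% lower in Nras), and none of the 3 FOXO genes did. Averaged over both populations, Nras against wild-type gave 1.16 ± 0.54 (95% interval 0.0068 to 2.32, limma unadjusted p 0.0489, adjusted p 0.64).

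The wide gap between Nras GFP- and wild-type GFP- cells was seen in 1 of the 4 Foxo1 probe sets. The suffix of 1416983_s_at marks probes that match more than 1 transcript, whereas the other Foxo1 probe sets lack such a mark. Probe set 1416981_at read 331.3, 530.8 and 252.5 in wild-type GFPhigh, against 228.2, 99.4 and 205.5 in wild-type GFP-, again without overlap. It read 695.9, 96.8 and 216.6 in Nras GFPhigh and 242.3, 59.3 and 183.4 in Nras GFP-, where the Nras GFP- and wild-type GFP- arrays overlapped. Probe set 1416982_at read 245.1, 300.2 and 280.1 in wild-type GFPhigh and 277.9, 88 and 161.7 in wild-type GFP-, with 83.2, 130.2 and 461.6 in Nras GFPhigh and 75.4, 196.6 and 71.4 in Nras GFP-. The dimmest, 1456529_at, lay between 16.6 and 111.1 and was above the array median on 4 of 12 arrays. The group of lowest geometric mean differed too. It was Nras GFP- for 1416981_at (138, against 167 in wild-type GFP-) and for 1416982_at (102, against 158). For 1456529_at it was Nras GFPhigh (26.0, against 51.7 in wild-type GFP-).

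In wild-type cells the 4 probe sets shared a direction, with log2 differences of 2.35 ± 0.74, 1.08 ± 0.94, 0.79 ± 0.90 and 0.35 ± 0.90 for GFPhigh against GFP- in the order given above. They parted elsewhere. For Nras against wild-type in GFP- cells, 1416981_at gave -0.27 ± 0.94, 1416982_at -0.63 ± 0.90 and 1456529_at 0.21 ± 0.90, beside 2.63 ± 0.74 for 1416983_s_at. The interaction was below 0 in all 4, at -0.26 ± 1.32, -0.05 ± 1.27 and -1.56 ± 1.27 in these 3, beside -2.94 ± 1.05. In Nras cells 1416981_at gave 0.82 ± 0.94 and 1416982_at 0.75 ± 0.90 for GFPhigh against GFP-, opposite in sign to -0.60 ± 0.74 for 1416983_s_at and to -1.21 ± 0.90 for 1456529_at, whose Nras GFPhigh arrays all lay below its Nras GFP- arrays. Across the 12 arrays the Foxo1 probe sets correlated with one another at Pearson r of -0.179 to 0.395. Which probe set follows Foxo1 RNA best was not tested, and the sizes of the Nras against wild-type difference in GFP- cells and of the interaction depend on the probe set.

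**Figure D2:**
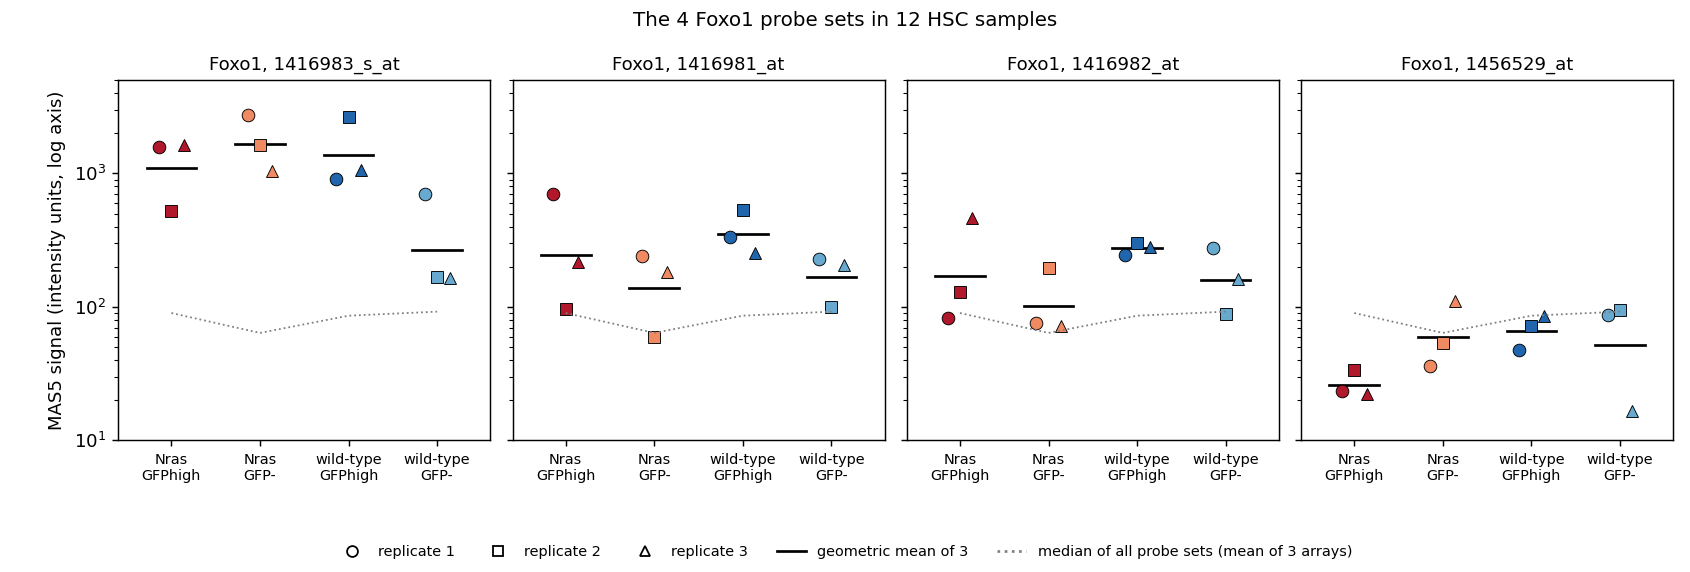
MAS5 signal (intensity units, log axis) of the 4 Foxo1 probe sets in the 12 arrays, with bars for the geometric mean of each group and a dotted line for the array median averaged over each group. The brightest probe set, 1416983_s_at, places Nras GFP- (1041.3 to 2734.8) above wild-type GFP- (164.5 to 700.2), while the Nras GFP- and wild-type GFP- points of the other 3 probe sets overlap.

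Foxo3, the member most tied to HSC maintenance, gave nearly the same signal in all groups. It read 6726.2, 4581.6 and 3602.2 in Nras GFPhigh and 5355.8, 6014.7 and 5025.4 in Nras GFP-. It read 5645.1, 4950.8 and 5176.5 in wild-type GFPhigh and 5147.9, 5112.2 and 5404.2 in wild-type GFP-. The lowest and the highest of the 12 arrays both lay in Nras GFPhigh, and every pair of groups overlapped. The log2 spread within groups was 0.24, and 96.9% of tested genes had a larger one (median 1.04), so Foxo3 was among the steadier genes on these arrays. These genes were of any brightness, and Foxo3 was not compared with genes of like signal alone. By geometric mean the order was Nras GFP- at 5450, wild-type GFPhigh at 5250, wild-type GFP- at 5220 and Nras GFPhigh at 4806, with no neighbours apart beyond their spread.

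The log2 difference of GFPhigh against GFP- for Foxo3 was 0.01 ± 0.22 in wild-type cells (95% interval -0.47 to 0.48) and -0.18 ± 0.22 in Nras cells (-0.66 to 0.29). Nras against wild-type gave -0.13 ± 0.22 in GFPhigh cells and 0.06 ± 0.22 in GFP- cells. Averaged over both populations it gave -0.03 ± 0.15 (95% interval -0.37 to 0.30, limma adjusted p 0.965), which is a fold of 0.775 to 1.23. Without the uneven arrays the Nras GFPhigh group is replicate 3 alone, which had the lowest Foxo3 signal, and GFPhigh against GFP- in Nras cells was then -0.61 ± 0.20 (limma unadjusted p 0.0134, adjusted p 0.339), with the lone array taken to vary like the others.

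Of the other Foxo3 probe sets, 1434831_a_at lay between 2960.9 and 5258.1 and followed 1434832_at over the arrays at r = 0.809. Probe set 1450236_at lay between 1802.8 and 5305.7 and correlated with it at r = -0.3. Its highest array was Nras GFPhigh replicate 3, the one in which the other 2 were lowest. The 7 comparisons of all 3 probe sets gave log2 differences between -0.20 and 0.09, none with an adjusted p under 0.05.

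Foxo4, the X-linked member, gave its highest and most even signals in Nras GFPhigh cells. It read 1083.9, 1291.4 and 1147.8 in Nras GFPhigh, against 860.8, 333.4 and 792.9 in Nras GFP-, without overlap. In wild-type GFPhigh it read 647.3, 497.1 and 1143.7, and in wild-type GFP- 1088, 692 and 675.3, with overlap. By geometric mean the order was Nras GFPhigh at 1171, wild-type GFP- at 798, wild-type GFPhigh at 717 and Nras GFP- at 611, and only the first and the last were apart.

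In Nras cells the Foxo4 difference of GFPhigh against GFP- was 0.94 ± 0.59 on the log2 scale (95% interval -0.33 to 2.21), a fold of 1.92, with a limma unadjusted p of 0.134 and an adjusted p of 0.55. It was 0.50 without Nras GFP- replicate 2, 0.45 after median centring and 0.35 with the mean over both Foxo4 probe sets. Among all tested genes 6.7% were higher in Nras GFPhigh with no overlap, and 12.2% had an unadjusted p under 0.05, so Foxo4 did not stand apart here. In wild-type cells the difference was -0.16 ± 0.59, and the interaction was 1.1 ± 0.83 (limma unadjusted p 0.211). Nras against wild-type gave 0.71 ± 0.59 in GFPhigh cells (limma adjusted p 0.785) and -0.39 ± 0.59 in GFP- cells (limma adjusted p 0.983). A second Foxo4 probe set, 1422149_at, read 1.1 to 31.7 and was above the array median on none of the 12 arrays.

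**Figure D3:**
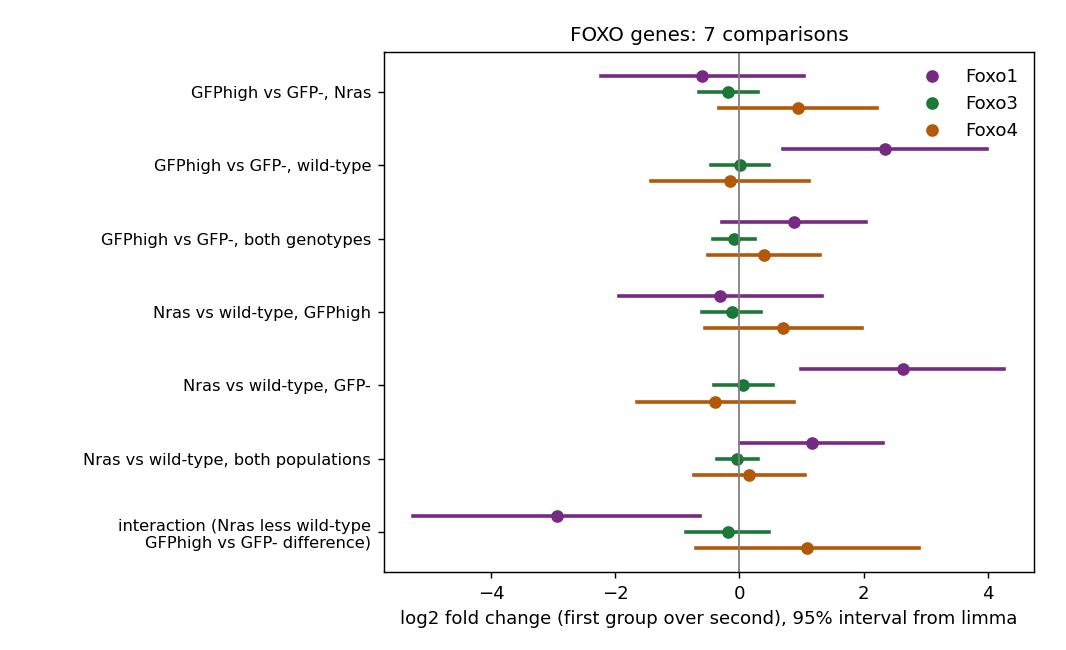
Log2 fold change (first group over second) of Foxo1, Foxo3 and Foxo4 in 7 comparisons, with bars for the 95% interval from limma. The intervals of Foxo1 leave 0 in wild-type GFPhigh against GFP- (0.71 to 3.98), in Nras against wild-type GFP- (1.0 to 4.27), in the average over both populations (0.0068 to 2.32) and in the interaction (-5.26 to -0.63), before adjustment over 12083 genes. All intervals of Foxo3 and Foxo4 include 0.

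The 3 members did not follow one another over the arrays. Pearson r of log2 signal was 0.02 between Foxo1 and Foxo3, -0.08 between Foxo1 and Foxo4, and -0.36 between Foxo3 and Foxo4 (12 arrays, which share scaling, RNA extraction and group). Whether 2 members differed unequally between groups was asked with exact two-sided permutation tests of their difference within each array, 6 in all. For Nras against wild-type the Foxo1 difference exceeded that of Foxo3 by 1.20 on the log2 scale (exact permutation p 0.135) and that of Foxo4 by 1.0 (exact permutation p 0.275). For GFPhigh against GFP- Foxo1 exceeded Foxo3 by 0.96 (exact permutation p 0.2) and Foxo4 by 0.48 (exact permutation p 0.59). The Foxo3 difference less that of Foxo4 was -0.48 for GFPhigh against GFP- (exact permutation p 0.32) and -0.19 for Nras against wild-type (exact permutation p 0.645). The lowest p these permutations allow is 0.005, and the lowest of the 6 after Benjamini-Hochberg adjustment was 0.48.

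The gene closest to Foxo1 in pattern was Gata2, a transcription factor of HSCs, at r = 0.895 over 12 arrays. Over the 8 arrays that are not uneven its r was 0.9, at rank 31, and the other 4 genes named for Foxo1 ranked lower, down to 223. Gata2 read 3379.1, 1775.7 and 2289.7 in Nras GFPhigh, 4176.1, 2855.8 and 2206.8 in Nras GFP-, 2252.5, 3390.6 and 1983.1 in wild-type GFPhigh, and 2200.7, 1349.8 and 1644.5 in wild-type GFP-. Within groups, where group means were taken out, Foxo1 and Gata2 correlated at 0.862, so arrays with more 1416983_s_at signal in a group also had more Gata2 signal. Likeness was taken for this representative probe set alone. The other Foxo1 probe sets correlated with it at r of 0.395, 0.179 and 0.0373. Next came Cckbr (0.853), Fam3c (0.842), Stam (0.83) and Nbeal2 (0.812). For Foxo3 the closest were Bahd1 (0.903), Fam102b (0.893), Usp31 (0.872), Pkm (0.87), the glycolytic pyruvate kinase, and Mthfd1 (0.862), a folate enzyme. After quantile normalization r was 0.641 for Bahd1 and 0.531 for Usp31. For Foxo4 the closest were Slmap (0.912, and 0.985 over the 8 arrays), Fryl (0.887), Rrnad1 (0.88), Scaper (0.871) and Ccrl2 (0.866). These genes were the highest of 12083 by r, so high values are part of the choice.

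**Figure D4:**
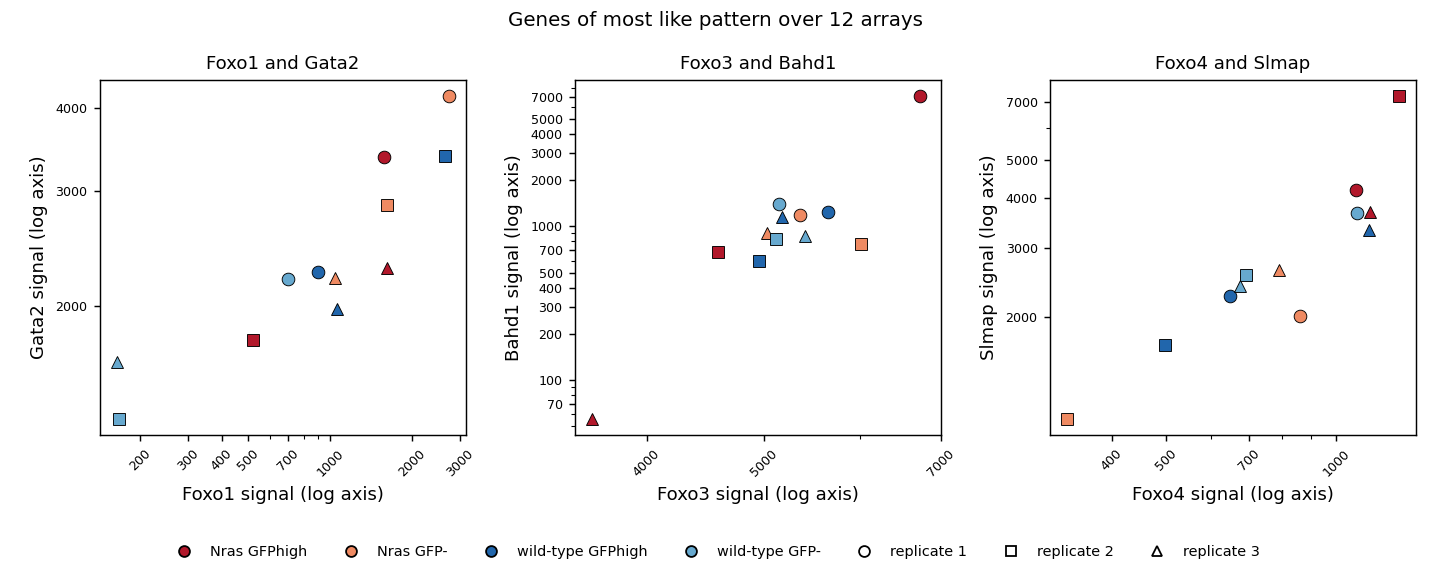
MAS5 signal (intensity units, log axes) of the representative probe set of each FOXO gene against the gene most like it over 12 arrays, with colours for groups and symbols for replicates. Foxo1 and Gata2 climb together across all groups (r = 0.895). Foxo3 and Bahd1 (r = 0.903) are spread mainly by Nras GFPhigh replicates 1 and 3, and Foxo4 and Slmap (r = 0.912) run from Nras GFP- replicate 2 to Nras GFPhigh replicate 2.

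Genes upstream of the FOXO proteins were followed in a list of 27 PI3K and AKT pathway genes, of which 23 were tested. For GFPhigh against GFP- over both genotypes, 1 gene had an unadjusted p under 0.05 on the higher side and 1 on the lower side (8.7%, against 8.87% of all tested genes), with a median log2 difference of 0.31 against 0.02 over all genes. The gene on the higher side was Pik3r1, which encodes the regulatory p85-alpha subunit of PI3K. It read 13203.6, 12119.4 and 8399.4 in Nras GFPhigh, against 5471.9, 6575.7 and 5947.7 in Nras GFP-. It read 8540, 9064.7 and 7417.9 in wild-type GFPhigh, against 5671.2, 7261.8 and 7173.1 in wild-type GFP-. In both genotypes all GFPhigh arrays were above all GFP- arrays. Of all tested genes 5.3% were so in wild-type and 6.7% in Nras cells, each genotype taken alone.

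The log2 difference of Pik3r1 over both genotypes was 0.60 ± 0.13, a fold of 1.52, with a limma unadjusted p of 0.000414 and an adjusted p of 0.219. It was 0.34 ± 0.12 without the uneven arrays and 0.81 ± 0.18 with the mean over its 4 probe sets. The gene on the lower side was Pik3cg, a catalytic PI3K subunit of blood cells, at -0.96 ± 0.41 (limma adjusted p 0.55). Phlpp1, a phosphatase that removes an activating phosphate from AKT, gave 1.04 ± 0.50, and Akt1 gave 0.50 ± 0.65. For Nras against wild-type over both populations none of the 23 had an unadjusted p under 0.05 (7.78% of all genes did), and the median was -0.23 against -0.15 over all genes. The 2 of lowest p were the catalytic subunits Pik3ca, at 0.62 ± 0.29, and Pik3cd, at -0.88 ± 0.47.

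Of 32 listed modifiers and partners of FOXO proteins, 30 were tested. For Nras against wild-type over both populations 2 had an unadjusted p under 0.05 on the higher side and 1 on the lower side (10%, against 7.78% of all genes). Ywhae, a 14-3-3 protein, read 17051.1, 16909.3 and 11066.6 in Nras GFPhigh, against 9572.4, 10396.2 and 8412.6 in wild-type GFPhigh, with no overlap (5.12% of all genes were higher there with no overlap). In GFP- cells it read 13494.6, 10189 and 8625.7 in Nras and 7409.6, 9911 and 8553 in wild-type. The difference was 0.47 ± 0.14 (limma unadjusted p 0.00442, adjusted p 0.579), and it shrank to 0.22 ± 0.12 without the uneven arrays and to 0.14 ± 0.06 after quantile normalization. Ctnnb1, the beta-catenin that partners FOXO proteins, gave 0.29 ± 0.13.

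Stk4, the MST1 kinase that phosphorylates FOXO proteins under oxidative stress, was the modifier on the lower side. It read 4353.3, 2582.7 and 3772.1 in Nras GFPhigh, against 6663.8, 6099.8 and 4833 in wild-type GFPhigh. In GFP- cells it read 2483.8, 4207.3 and 4392.8 in Nras, against 4784.4, 6613.8 and 4955.5 in wild-type. All Nras arrays were below all wild-type arrays of the same population. Of all tested genes 7.37% were so in GFPhigh and 6.72% in GFP- cells, each population taken alone. The difference was -0.66 ± 0.20 (limma unadjusted p 0.00565, adjusted p 0.579), and -0.46 ± 0.17 without the uneven arrays. It was -0.01 ± 0.39 with the shared probe sets of suffix _s_at, _x_at or _a_at left out, so it rests on the probe set used.

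Sirt1, a deacetylase of FOXO proteins, gave -1.97 ± 0.97 in Nras against wild-type, with signals of 23, 327.4 and 538.6 in Nras GFPhigh and 22.4, 21.7 and 623.8 in Nras GFP-, against 252, 198.2 and 633.3 in wild-type GFPhigh and 713.4, 479 and 409.7 in wild-type GFP-. The Nras arrays were split between very low and wild-type-like signals. For GFPhigh against GFP- 1 of the 30 modifiers had an unadjusted p under 0.05 (Ywhae, 0.31 ± 0.14). Cdk2, the cyclin-dependent kinase that can phosphorylate Foxo1, gave -1.13 ± 0.57, and Skp2, the ubiquitin ligase subunit that marks Foxo1 for breakdown, gave -0.60 ± 0.49.

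Genes known as FOXO targets were followed in 5 lists with 75 entries, 58 of them tested. For GFPhigh against GFP- over both genotypes 37 were higher and 21 lower, with a median log2 difference of 0.22 against 0.02 over all genes. Of the 58, 10 had an unadjusted p under 0.05 on the higher side and 0 on the lower side, which is 17.2% against 8.87% of all genes (4.36% on the higher side and 4.51% on the lower side). None passed an adjusted p under 0.05. The 10 were the cell cycle genes Cdkn1c, Klf6, Ccng1, Ccnd2 and Klf2, the antioxidant genes Sod1 and Selenop, the metabolic genes Pdk4 and Glul, and Il7r. Il7r was above the array median on no GFP- array, so it passed the filter through GFPhigh arrays alone. Its place in the count is not independent of the filter. Among GFP- arrays Pdk4 was above the array median only in wild-type GFP- replicate 2 (128.5, array median 80.1). Not every listed target is switched on by FOXO proteins, since they repress Ccnd1, and Ccnd2 is the other D-type cyclin listed. A count on the higher side therefore does not give the direction of FOXO action. The count moved with the processing, to 6 after quantile normalization and 2 after median centring, beside 1 and 2 on the lower side. In either direction these were 12.1% and 6.9% of the targets, against 8.83% and 7.6% of all genes. Median centring shifts the median of all genes from near 0 to -0.15 in this comparison. With no intensity trend in the model 5 targets had such a p (8.62%, against 8.03% of all genes), a share near the background. Without the filter 9 of 71 targets did, all higher (12.7%, against 7.82% of all genes). With array weights 12 of 58 did, all higher (20.7%, against 9.56%). Single arrays moved the count too, taken in either direction. It was 6 without Nras GFPhigh replicate 1, wild-type GFPhigh replicate 1, wild-type GFPhigh replicate 2 or wild-type GFP- replicate 1 (10.3% each). The shares of all genes were then 8.19%, 7.32%, 7.02% and 6.38%, in that order. Without Nras GFPhigh replicate 3 the count was 16 (27.6%, against 12.2% of all genes).

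The letters TGTTTAC, and GTAAACA on the other strand, are the core of the DNA motif that FOXO proteins bind. They were searched in the RefSeq promoter windows of GRCm38.p6, 250 bases before to 50 bases after each gene's start. Of the 75 listed targets 58 had a window, and 8 of these held the letters (13.8%), against 1095 of 27025 genes (4.05%). The windows of Foxo1 and Foxo3 held none. A match describes the letters and is no evidence of binding in these cells. The 4 sequences printed here belong to target genes whose signals are described here, and capitals mark the motif. All are on the plus strand, at chr15:3270942-3270971 for Selenop, chr3:96557825-96557854 for Txnip, chr10:41810585-41810614 for Sesn1 and chr2:128125800-128125829 for Bcl2l11.
Selenop: cagagggcgagGTAAACAacagggctataa
Txnip: ttggaggcctgGTAAACAagggccaagtag
Sesn1: gaaccttctacTGTTTACcagccttttggg
Bcl2l11: aagacactaggGTAAACAcgccggggtggg

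The motif starts at position -24 from the gene start in Selenop, -121 in Txnip and -227 in Bcl2l11, and at 22, inside the transcript, in Sesn1. Bbc3, Btg1, Mxi1 and Trim63 were the other 4 target genes with a match.

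Cell cycle arrest was the target list with the most genes of low p. For GFPhigh against GFP- over both genotypes 14 of 18 genes were higher, 5 of them and no lower gene had an unadjusted p under 0.05 (27.8%, against 8.87% of all genes), and the median was 0.31. Cdkn1c, which encodes the CDK inhibitor p57 that keeps HSCs quiescent, read 876.6, 1502.5 and 2102.7 in Nras GFPhigh, against 202.7, 484.3 and 799.4 in Nras GFP-. It read 1520.5, 2693.8 and 1012.4 in wild-type GFPhigh, against 278.4, 538 and 230.5 in wild-type GFP-. The groups were apart in both genotypes, where 5.3% of all genes in wild-type and 6.7% in Nras cells were higher with no overlap. The log2 difference of Cdkn1c was 2.01 ± 0.49, a fold of 4.02, with a limma unadjusted p of 0.00127 and an adjusted p of 0.301.

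Klf6, a zinc finger factor that induces CDK inhibitors, read 10410.8, 7765.7 and 5817.4 in Nras GFPhigh, against 3603, 4262.8 and 4405.1 in Nras GFP-. It read 5269.8, 5526.7 and 5034.5 in wild-type GFPhigh, against 3865, 2679 and 3711.9 in wild-type GFP-. Here too the groups did not overlap in either genotype (5.3% of all genes were higher so in wild-type and 6.7% in Nras cells). The difference was 0.79 ± 0.17 (limma unadjusted p 0.000416, adjusted p 0.219), or 0.52 ± 0.17 without the uneven arrays. Ccng1, cyclin G1, gave 0.59 ± 0.21, but 0.22 ± 0.16 without the uneven arrays and -0.09 ± 0.44 with the mean over its probe sets. Klf2, a quiescence factor of lymphocytes, gave 1.44 ± 0.59, and 0.66 ± 0.62 without the uneven arrays.

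Other classical targets of this list had an unadjusted p above 0.05. Cdkn1b, the CDK inhibitor p27, gave -0.14 ± 0.29, Ccng2, cyclin G2, 0.00 ± 0.46, and Rbl2, the pocket protein p130, 0.45 ± 0.30. Cdkn1a, the CDK inhibitor p21, gave 1.81 ± 1.0, with 30.7 to 3111.9 over the Nras arrays. Gadd45a, a stress sensor that halts the cycle, read 2327, 155.5 and 46.6 in Nras GFPhigh and 1.4, 4.7 and 269 in Nras GFP-, but 86.4, 11.2 and 451.3 in wild-type GFPhigh and 640.5, 801.4 and 757.9 in wild-type GFP-. Its GFPhigh against GFP- difference was 7.67 ± 2.70 log2 units larger in Nras than in wild-type cells (limma unadjusted p 0.014, adjusted p 0.956), and it was the 1 target of 58 with an unadjusted p under 0.05 for the interaction (1.72%, against 4.68% of all genes and 2.43% on the higher side). The readings 2327, 1.4 and 11.2 were on uneven arrays. Those of 1.4, 4.7 and 11.2 lay far below their array medians of 44, 51.9 and 56.8.

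The cell cycle list had, for Nras against wild-type over both populations, 3 genes of unadjusted p under 0.05 on the higher side and 1 on the lower side (22.2%, against 7.78% of all genes). Ccnd1, cyclin D1, which FOXO proteins repress, read 4440.5, 3310.6 and 3084.5 in Nras GFP-, against 2038.3, 1477.7 and 1358.1 in wild-type GFP-. In GFPhigh cells it read 2643.1, 2498.8 and 2553.9 in Nras and 3172.9, 1632.7 and 2229.7 in wild-type. Nras was above wild-type on all GFP- arrays, as for 4.07% of all genes, and overlapped it in GFPhigh cells. The Ccnd1 difference was 0.67 ± 0.24 over both (limma adjusted p 0.594). Cited2, a transcriptional coregulator needed by HSCs, read 1674.3, 2668.8 and 3728.3 in Nras GFPhigh, against 5526, 6340.7 and 4845.9 in wild-type GFPhigh, and differed by -0.78 ± 0.28 over both populations (limma adjusted p 0.594). The other 2 were Ccnd2, like Ccnd1 a D-type cyclin, at 0.37 ± 0.14 and Klf6 at 0.42 ± 0.17.

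Of the oxidative stress list 15 of 17 entries were tested, and for GFPhigh against GFP- 2 had an unadjusted p under 0.05, both on the higher side (13.3%, against 8.87% of all genes), with a median of 0.04. Selenop, which encodes the selenium carrier selenoprotein P, read 4439.7, 4303.4 and 2896.2 in Nras GFPhigh and 2067, 2847.8 and 3201.6 in Nras GFP-. It read 4246.6, 5000.3 and 4398.4 in wild-type GFPhigh, against 3559, 2963.2 and 3685 in wild-type GFP-. The groups were apart in wild-type, as for the 5.3% of all genes higher there with no overlap, and overlapped in Nras. The Selenop difference was 0.47 ± 0.19 (limma adjusted p 0.531), or 0.15 ± 0.17 without the uneven arrays. Sod1, the cytosolic superoxide dismutase, gave 0.28 ± 0.12, but 0.01 ± 0.06 after quantile normalization.

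The thioredoxin inhibitor Txnip gave 0.41 ± 0.19 and the sestrins Sesn1 and Sesn3, which hold back mTORC1, 0.62 ± 0.30 and 0.53 ± 0.37. The mitochondrial superoxide dismutase Sod2, a standard FOXO target, gave 0.04 ± 0.34, catalase (Cat) 0.23 ± 0.25, the peroxiredoxin Prdx3 -0.65 ± 0.59 and the DNA damage kinase Atm -0.24 ± 0.38. None of the 15 had, for Nras against wild-type, an unadjusted p under 0.05, and the lowest p values were those of Sod1 (0.23 ± 0.12) and Txnrd2, a mitochondrial thioredoxin reductase (-0.87 ± 0.54).

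Of 10 listed cell death targets, 6 were tested, none with an unadjusted p under 0.05 in either comparison. Bcl2l11, which encodes the death protein BIM, read 1.3, 2489.1 and 3376.6 in Nras GFPhigh, 1360.7, 1431.3 and 1797.5 in Nras GFP-, 894.6, 2.8 and 1690.9 in wild-type GFPhigh, and 2822.8, 1292 and 3781.1 in wild-type GFP-. It differed by -3.33 ± 1.91 for GFPhigh against GFP-, and its 2 lowest readings, 1.3 and 2.8, were on uneven arrays. Tradd gave 0.92 ± 0.49, the death ligand Tnfsf10 0.31 ± 0.34 and the repressor Bcl6 -0.08 ± 0.64 in that comparison. In Nras against wild-type Bnip3 gave -0.64 ± 0.38 and Tradd -0.56 ± 0.49. Bbc3, which encodes PUMA, read 22.8 to 84 over all arrays and was too dim to be tested.

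Metabolism and autophagy targets had 15 of 20 entries tested, with 2 of unadjusted p under 0.05 for GFPhigh against GFP-, both higher (13.3%, against 8.87% of all genes). Pdk4, the kinase that shuts pyruvate dehydrogenase and spares glucose, read 67.2, 5357.5 and 228.4 in Nras GFPhigh, against 11.2, 26 and 44.6 in Nras GFP-. It read 475.8, 324.9 and 147 in wild-type GFPhigh, against 16.4, 128.5 and 16 in wild-type GFP-. All GFPhigh arrays were above all GFP- arrays of their genotype (5.3% of all genes were so in wild-type and 6.7% in Nras cells). The Pdk4 difference was 3.67 ± 1.0 (limma unadjusted p 0.00294, adjusted p 0.385), and 2.89 ± 0.95 without the uneven arrays. Glul, glutamine synthetase, gave 0.31 ± 0.14 and Atg12, an autophagy conjugation factor, -1.31 ± 0.64. Between Nras and wild-type 1 of the 15 with such a p was on each side (13.3%, against 7.78% of all genes), Ppargc1a, a coactivator of mitochondrial genes, at 2.69 ± 1.20 and Atg14 at -1.77 ± 0.70. The highest Ppargc1a reading was 2977.8 in Nras GFP- replicate 1, an uneven array, where the other 11 arrays read 2.7 to 293.5.

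Of 10 lymphoid targets 4 were tested. Il7r, the interleukin-7 receptor that Foxo1 switches on in lymphocytes, read 331.5, 270.7 and 3.7 in Nras GFPhigh, 4.8, 2.6 and 12.4 in Nras GFP-, 108.2, 25.7 and 12.4 in wild-type GFPhigh, and 18.7, 11.8 and 14.9 in wild-type GFP-. It differed by 2.41 ± 1.11 for GFPhigh against GFP- (limma adjusted p 0.563), and by 0.34 ± 1.09 without the uneven arrays, which hold its 2 highest readings. Il7r passed the filter through GFPhigh arrays alone, so this difference is not independent of the filter. S1pr1, the receptor by which lymphocytes leave tissues, gave 0.57 ± 0.60, Ikzf1 0.05 ± 0.26 and Foxp3 0.04 ± 0.59. S1pr1 gave -0.53 ± 0.60 and Foxp3 -0.72 ± 0.59 for Nras against wild-type, and none of the 4 had an unadjusted p under 0.05.

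**Figure D5:**
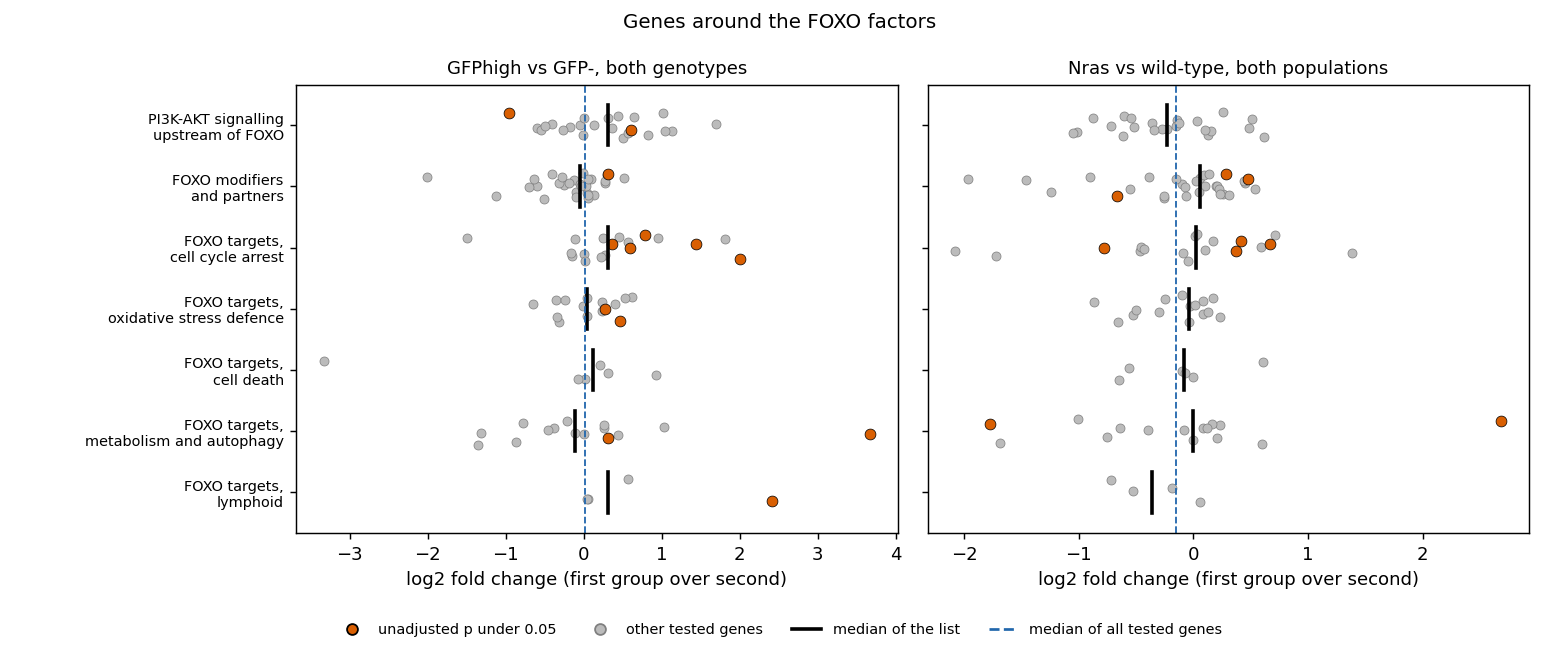
Log2 fold change of each tested gene of 7 lists around the FOXO factors, for GFPhigh against GFP- over both genotypes (left) and Nras against wild-type over both populations (right). Orange points have an unadjusted p under 0.05, black bars mark the list median and the dashed line the median of all 12083 genes (0.02 left, -0.15 right). Cell cycle arrest genes have 5 orange points on the left, all above 0, among them the D-type cyclin Ccnd2.

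Markers of other cells were set beside these counts. Of 12 granulocyte markers, 11 were higher in GFPhigh than in GFP- cells of Nras mice, with a median log2 difference of 3.47 and 6 of unadjusted p under 0.05 (50%, against 12.2% of all genes). In wild-type cells 5 were higher and 7 lower, with a median of -0.93 and 1 of such a p, on the lower side (8.33%, against 2.2%). Their summed signals are given with the samples above. Of 10 endothelial and stromal markers tested, 9 were higher in Nras GFPhigh than in Nras GFP- cells. Of these 5 had an unadjusted p under 0.05 (50%, against 12.2% of all genes). In wild-type cells 4 were higher and 6 lower, with 1 of such a p, on the lower side (10%, against 2.2%). The 14 such markers on the array summed to 4569.6 to 16408.7 in Nras GFPhigh, 1207.9 to 4519.4 in Nras GFP-, 963.8 to 2786.9 in wild-type GFPhigh and 3109 to 3506.5 in wild-type GFP-. Of 13 HSC markers, 10 were higher in GFPhigh than in GFP- cells over both genotypes, 6 with an unadjusted p under 0.05 (46.2%, against 8.87% of all genes), a larger share than the 17.2% of the targets. HSC markers summed to 48708.6 to 63911.7 in Nras GFPhigh, 35470.5 to 46240 in Nras GFP-, 44575.1 to 49734.8 in wild-type GFPhigh and 35394.3 to 38070.3 in wild-type GFP-. The 11 B lineage markers on the array summed to 1493.1 to 3852 in Nras GFPhigh, 386.7 to 1263.7 in Nras GFP-, 591.2 to 1471.5 in wild-type GFPhigh and 522.5 to 774.8 in wild-type GFP-. Pax5, which defines B cells, read 6.2 to 41.9, 8.7 to 29.8, 4.2 to 86.1 and 7.2 to 11.4 in these 4 groups, and Vpreb1, a pre-B cell gene, reached 1809.2 in Nras GFPhigh. Proliferation markers summed to 17845.8 to 28314.7 in Nras GFPhigh, 22595.4 to 35252.5 in Nras GFP-, 9598.3 to 18525.8 in wild-type GFPhigh and 19960.6 to 24027.5 in wild-type GFP-. Over both genotypes 12 of the 13 tested were lower in GFPhigh, 8 of them with an unadjusted p under 0.05 (61.5%, against 8.87% of all genes). The part of these markers in the target values was not tested.

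Within single genotypes and populations the target counts moved with the processing. In wild-type cells 4 of 58 targets had an unadjusted p under 0.05 for GFPhigh against GFP-, all higher (6.9%, against 2.2% of all genes), namely Cdkn1c, Klf6, Rbl2 and Pdk4. In Nras cells 10 were on the higher side and 1 on the lower side (19%, against 12.2%, of which 6.2% higher and 5.97% lower). Cdkn1c, Klf6 and Pdk4 were counted in both genotypes. With no intensity trend the wild-type count was 1 (1.72%, against 2.62% of all genes), and with 1 array left out it was 2 to 4. The Nras count was 4 and 0 with only the groups compared (6.9%, against 6.46%), 2 and 2 with median centring (6.9%, against 11.7%) and 4 and 1 without the uneven arrays (8.62%, against 10.2%). For Nras against wild-type the targets had 4 higher and 2 lower over both populations (10.3%, against 7.78%, of which 2.66% higher and 5.12% lower), 3 and 2 in GFPhigh cells (8.62%, against 8.29%, of which 3.17% higher and 5.12% lower) and 2 and 2 in GFP- cells (6.9%, against 4.39%, of which 0.968% higher and 3.42% lower). Over both populations the count was 0 higher and 1 lower without the uneven arrays (1.72%, against 7.61%).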

How the data were processed

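RNA of 12 HSC samples was measured on Affymetrix arrays. The deposited values are intensity on a linear scale, made by the authors with MAS5 per the submitters' processing notes, which give no version. Each array averages 500 once 2% of probe sets at either end are trimmed, so arrays had been scaled. Median signals ran from 44 to 129.6, and the number of arrays limits precision. No table column was left unmapped.

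The deposited signals were taken to log2 here, with 3 values of 0 set to 0.1, and not normalized again. Of 45101 probe sets, 34945 had 1 gene symbol, 932 several, 9160 none and 64 were controls. For each gene the probe set with the highest average on the log2 scale was used, and 12083 genes above the array median in at least 3 arrays were tested. One limma model (R 4.3.3, limma 3.58.1, statmod 1.5.0), a mean per group with an intensity trend, gave 7 comparisons with Benjamini-Hochberg adjustment. SE is limma's. The model was also run on simulated data with 200 changed genes. Noise there was alike on all arrays, so this does not test the fit to the uneven arrays. Replicates are biological per the labels. The p-values of limma set a group difference against the spread between replicates, steadied by the spread of all genes. Other steps used pandas 2.3.3 and numpy 2.4.6 under Python 3.11.15, with figures by matplotlib 3.10.9.

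Members and gene lists were chosen with earlier results of these data known. Named from each list were genes past an adjusted p of 0.05 or, with none, the 3 of smallest p for GFPhigh against GFP- and the 2 of smallest p for Nras against wild-type, each over both levels of the other factor, plus classical genes fixed by name, some of which are not reported here. Other list genes of unadjusted p under 0.05 (Ccnd2) were added because a count called for them. Likeness is the 5 highest Pearson r per member. Replicate numbers were not taken as pairs, since correlations of same-numbered deviations ran from -0.0444 to 0.152 and did not all exceed 0.1, although replicate 3 of every group shares low Xist. Alternatives were quantile normalization, centring on array medians, array weights, no filter or one at percentile 75, means over probe sets, leaving out shared probe sets, pseudocounts of 15.5 and 100, a replicate block, a term for replicate 3, only replicates 1 and 2, each array left out, only the groups compared, leaving out 4 arrays of weight under 0.6, and no intensity trend. Applying them to the pathway genes and target counts was added after seeing the data.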

Additional observations from a re-analysis of the deposited data

How the results depend on the processing

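None of 579 values for the FOXO genes, over 15 alternative settings and with each of 12 arrays left out, had an adjusted p under 0.05, and 6 of 21 results kept their direction in all other settings. Values below are log2 differences that changed sign, and the cause was not tested. With array weights Foxo1 in Nras against wild-type GFPhigh was 0.089. With the mean over probe sets, Nras against wild-type over both populations was -0.12 for Foxo1, -0.010 for Foxo1 less Foxo3 and -0.23 for Foxo1 less Foxo4. In that setting wild-type GFPhigh against GFP- was -0.031 for Foxo3 and 0.35 for Foxo4, Nras against wild-type GFP- was -0.076 for Foxo3 and 0.11 for Foxo4, and the Foxo4 interaction was -0.00079. Median centring gave 0.26 for Foxo3 in Nras against wild-type over both populations and 0.22 for Foxo4 in GFP- cells. With only replicates 1 and 2 Foxo3 was 0.0057 for GFPhigh against GFP-, 0.11 for Nras against wild-type over both populations and 0.070 for Nras against wild-type in GFPhigh cells. Quantile normalization gave -0.055 for Foxo3 in wild-type GFPhigh against GFP- and -0.10 in Nras against wild-type GFP-. Without shared probe sets Foxo1 was 0.82 in Nras GFPhigh against GFP-, -0.40 in Nras against wild-type over both populations and -0.27 in GFP- cells, with -0.37 for Foxo1 less Foxo3 and -0.57 for Foxo1 less Foxo4. Without the uneven arrays Foxo1 was 0.32 in Nras GFPhigh against GFP- and 0.73 in Nras against wild-type GFPhigh, and Foxo4 was 0.11 in wild-type GFPhigh against GFP- and -0.11 in Nras against wild-type over both populations. Leaving out 1 array at a time, Foxo3 ran from -0.21 (without Nras GFPhigh replicate 1) to 0.017 (without Nras GFPhigh replicate 3) for GFPhigh against GFP-, from -0.044 to 0.050 in wild-type cells and from -0.42 to 0.027 in Nras cells. For Nras against wild-type it ran from -0.15 to 0.071 over both populations, from -0.37 to 0.081 in GFPhigh and from -0.0088 to 0.12 in GFP- cells, and its interaction from -0.43 to 0.018. Foxo1 in Nras against wild-type GFPhigh ran from -0.60 to 0.24. Foxo4 ran from -0.49 to 0.11 in wild-type GFPhigh against GFP- and from -0.63 to 0.050 in Nras against wild-type GFP-.

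The replicate block kept every log2 difference of the FOXO genes, and none passed an adjusted p of 0.05 with or without it. Over all genes it ended the 1 call, in Nras against wild-type over both populations (0 with the block, and 0 with a term for replicate 3). With it the unadjusted p of Foxo1 for Nras against wild-type over both populations was 0.0534 (0.0489 without it). Same-numbered samples correlated at a median of 0.0422, and 3 of 18 pairs exceeded 0.1 (0 of 36 pairs of other numbers), short of every pair, so the numbers were not taken as pairs. The count of FOXO targets with an unadjusted p under 0.05 for GFPhigh against GFP- was 10 higher and 0 lower (17.2%, against 8.87% of all genes). It was 2 and 2 with median centring (6.9%, against 7.6%) and 5 and 0 with no intensity trend (8.62%, against 8.03%). Other settings kept or raised its share. The count was 12 and 0 with array weights (20.7%, against 9.56%) and 11 and 1 with the replicate block (20.7%, against 9.26%). With the filter at percentile 75 it was 9 and 0 (19.1%, against 9.47%). With each array left out it was 5 to 13 higher.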
